A study of Homo sapiens with 6 samples.

Results

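The genes described here lie around GLI1 in bands q13 to q15 of human chromosome 12. They are the 33 listed neighbours that run in chromosome order from NAB2 to ATP23, plus MDM2 further towards the telomere, and they were found in the table by Entrez gene ID. GLI1 itself is not counted among them. All 33 were among the 25702 genes listed and all 33 passed the filter on low values (a mean normalised read count of 10 or more over the libraries), which left 15622 genes to test. RNA was sequenced from RMS13, an established human rhabdomyosarcoma cell line. The siGLI1 group had been transfected with a small interfering RNA (siRNA) to GLI1 and the siNT2 group with a non-targeting siRNA, each harvested after 72 h and each with 3 libraries. All 6 libraries came from this single line in serum-containing medium. The labels do not say whether replicates were separate cultures, so the p-values reflect how far these libraries spread, and that spread may be technical.

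GLI1 is the zinc finger transcription factor that carries Hedgehog signalling to its target genes, and it is itself a Hedgehog target. Its stretch of chromosome 12 is gene-dense and holds CDK4, the kinase that pairs with D cyclins to phosphorylate RB1. Further along lies MDM2, a ubiquitin ligase and oncogene. The interval is known for DNA amplification in sarcomas, where many neighbouring genes are gained together although few of them share a function. Copy number was not measured here.

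Before the neighbours are described, the short sequences that the results refer to are given. The first set is shown because the 7-base word GCACCTC in 3' untranslated regions (3' UTRs) was carried more often by genes called lower in earlier work on these libraries. The sequence of the siRNA was not in the sources used here. GENCODE 29 transcripts place the word in the 3' UTR of 3 of the 33 neighbours, PIP4K2C at base 600 of 1642, METTL1 at base 51 of 592 and EEF1AKMT3 at base 268 of 2265. Capitals mark the word.
PIP4K2C: gcagcctgGCACCTCacagaggt
METTL1: acatctagGCACCTCaactgagg
EEF1AKMT3: ttctttcaGCACCTCctgcccca

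The second set is promoter windows from RefSeq on GRCh38.p14, each running from 250 bases before to 50 after a gene's start, on the strand of the gene. NAB2 (chr12:57088864-57089163, plus strand) and PIP4K2C (chr12:57590942-57591241, plus strand) are shown because both were called lower under every alternative tried. MARS1 (chr12:57487818-57488117, plus strand) is shown because its window held a searched word, in capitals.
NAB2: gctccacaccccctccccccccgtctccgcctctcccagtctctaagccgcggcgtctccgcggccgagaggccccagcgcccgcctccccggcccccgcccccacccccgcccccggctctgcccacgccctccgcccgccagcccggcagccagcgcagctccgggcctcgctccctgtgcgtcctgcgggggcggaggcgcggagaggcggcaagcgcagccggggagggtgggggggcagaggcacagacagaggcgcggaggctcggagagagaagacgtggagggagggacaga
PIP4K2C: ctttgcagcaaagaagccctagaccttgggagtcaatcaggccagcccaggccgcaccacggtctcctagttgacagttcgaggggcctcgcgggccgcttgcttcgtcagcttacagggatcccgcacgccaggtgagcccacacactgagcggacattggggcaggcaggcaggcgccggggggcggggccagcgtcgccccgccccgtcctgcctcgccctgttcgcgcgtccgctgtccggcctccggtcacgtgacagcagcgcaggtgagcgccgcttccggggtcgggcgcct
MARS1: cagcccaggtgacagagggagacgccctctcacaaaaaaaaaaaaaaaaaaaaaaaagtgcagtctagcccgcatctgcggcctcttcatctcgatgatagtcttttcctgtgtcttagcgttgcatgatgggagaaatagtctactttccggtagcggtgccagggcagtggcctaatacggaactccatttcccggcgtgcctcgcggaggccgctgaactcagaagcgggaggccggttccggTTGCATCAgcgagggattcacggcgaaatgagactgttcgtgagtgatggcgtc

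Windows were available for 21 of the 33 neighbours, 30 windows in all because some genes have several starts. The GLI consensus word GACCACCCA, or its reverse TGGGTGGTC, was in 0 of the 30 windows and in 42 of the 16599 windows of tested genes (0.253%). The word TGATGCAA, or its reverse TTGCATCA, is a composite that ATF4 and CEBP factors can bind. It was in 1 of the 30 windows, that of MARS1, and in 90 of the 16599 (0.542%). These are matches of letters and not binding sites, and no match says only that the letters are not in the window.

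Each library held between 13673977 and 18947614 recovered reads and detected between 19355 and 20292 genes. Values are normalised read counts (reads per gene divided by a size factor per library). Each log2 fold change was taken on log2(value + 1) and is positive where siGLI1 was higher. Libraries of the same group stood apart along the GC content of genes. Over 14438 genes, the Spearman coefficient of the departure from the group mean against GC content was -0.689, -0.307 and 0.74 in siGLI1 replicates 1, 2 and 3, and -0.486, 0.692 and -0.59 in siNT2 replicates 1, 2 and 3. Between the groups, the coefficient of the log2 fold change against GC content was -0.289 over these genes and -0.0545 over the 33 neighbours. The neighbours had a median GC content of 54.5%, against 48.7% for all genes tested. Their median deviation was highest in siGLI1 replicate 3 (0.20) and siNT2 replicate 2 (0.18), the same libraries in which GC-rich genes ran high. The part of GC content in each result below was not tested beyond the correction whose values are given. Of the muscle markers, MYOD1, MYOG, DES, PAX3, CDH15, CHRNA1 and MYH3 were all well above the filter. MYF5 was below it, with 1.08, 0 and 0.988 normalised reads in siGLI1 libraries and 0 in all siNT2 libraries. The sum of all these markers was 48738 to 72851 in siGLI1 libraries and 43507 to 60541 in siNT2 libraries. Summed epithelial markers were 28.6 to 38.9 in siGLI1 libraries and 49.7 to 59.8 in siNT2 libraries, blood markers 42.1 to 73.1 in siGLI1 libraries and 36.7 to 77.1 in siNT2 libraries, and neural markers 175.0 to 456.3 in siGLI1 libraries and 196.2 to 376.3 in siNT2 libraries. The endothelial sum was 94.1 to 102.7 in siGLI1 libraries and 13.6 to 26.4 in siNT2 libraries, and 1 of its 3 genes, PECAM1, made most of it while CDH5 and VWF stayed below the filter. HBB was at 0 in all libraries, and PTPRC, CD3E, CDH1, KRT5, KRT14, SYP and GFAP were below the filter. The part of these markers in the results was not tested. In a bulk sample, fewer cells of a type and less RNA per cell cannot be told apart.

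GLI1 (Entrez gene 2735) checks the labels. It had 580, 906 and 1274 normalised reads in siGLI1 libraries, against 11962, 17837 and 12774 in the siNT2 libraries. Every siGLI1 library was far below every siNT2 library, and the siGLI1 mean was 6.48% of the siNT2 mean. GLI1 fell by 4.00 in log2 units with a standard error of 0.29 (95% interval -4.67 to -3.32, limma adjusted p = 0.000425).

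At baseline, in siNT2 cells, the block from NAB2 to CTDSP2 was one of high expression. Levels of different genes were compared as normalised reads per kilobase (kb) of the longest GENCODE 29 transcript. On that scale the median neighbour stood at 1482 per kb, the 96.7th percentile of tested genes, against a median of 117 per kb over all genes. Of the 33 neighbours, 22 were above the 90th percentile and 30 above the 50th. The 5 other tested genes between NAB2 and ATP23 had a median percentile of 89.5. They include the microRNA genes MIR616 (0.097 kb, mean 54.5 normalised reads) and MIR26A2 (0.084 kb, mean 55.2), and MIR26A2 is that median. Few reads over so short a length give a high level per kb. B4GALNT1, AGAP2-AS1 and GIHCG stood at percentiles 86.3, 89.9 and 97.5.

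CDK4 led the block at 41167 ± 866 per kb (SD, n = 3), rank 12 of the 14438 tested genes that have a length. STAC3, an adaptor of excitation-contraction coupling in skeletal muscle, followed at 21847 ± 4663 per kb and rank 18. OS9, a lectin that sorts misfolded glycoproteins in the endoplasmic reticulum, stood at 12432 ± 2432 per kb, and SHMT2, the mitochondrial serine hydroxymethyltransferase, at 10330 ± 980 per kb, so these neighbours in the order lay within their spread. CTDSP2, a small phosphatase of the RNA polymerase II C-terminal domain, came next at 6426 ± 584 per kb, close to MARS1, the cytosolic methionyl-tRNA synthetase, at 5987 ± 261 per kb. GLI1 stood at 3928 ± 881 per kb, rank 105, so it was below 6 of its listed neighbours on this scale.

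High levels did not extend to every gene of the block or along the whole interval. KIF5A, a neuronal kinesin heavy chain, was the lowest neighbour at 13.5 per kb (percentile 12.97), and INHBC, which encodes an activin subunit made mainly in liver, stood at 27.3 per kb (percentile 21.0). ARHGAP9, next to GLI1, was at 112 per kb (percentile 48.9), and STAT6, the interleukin-4 signal transducer, at 147 per kb (percentile 55.9). MDM2, the listed gene farthest along the chromosome, was also mid-range on this scale at 148 ± 3.97 per kb (percentile 56.1). Its mean of 1869 normalised reads was divided by a longest transcript of 12.63 kb. ATP23, with a mean of 1597 over 2.887 kb, stood at percentile 86.9. Such percentiles depend on the transcript chosen, also for the genes between ATP23 and MDM2, and other lengths were tried only for the median of the 33 neighbours. The 31 tested genes with a length between ATP23 and MDM2 had a median percentile of 34.0 and a highest of 76.3, and 0 of them were above the 90th. Of the 15 tested genes before NAB2, 1 was above the 90th percentile (median 68.3), and likewise 1 of the 15 after MDM2 (median 20.0). Elsewhere on chromosome 12, 66 of 699 genes were above the 90th percentile, with a median of 47.3.

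**Figure D1:**
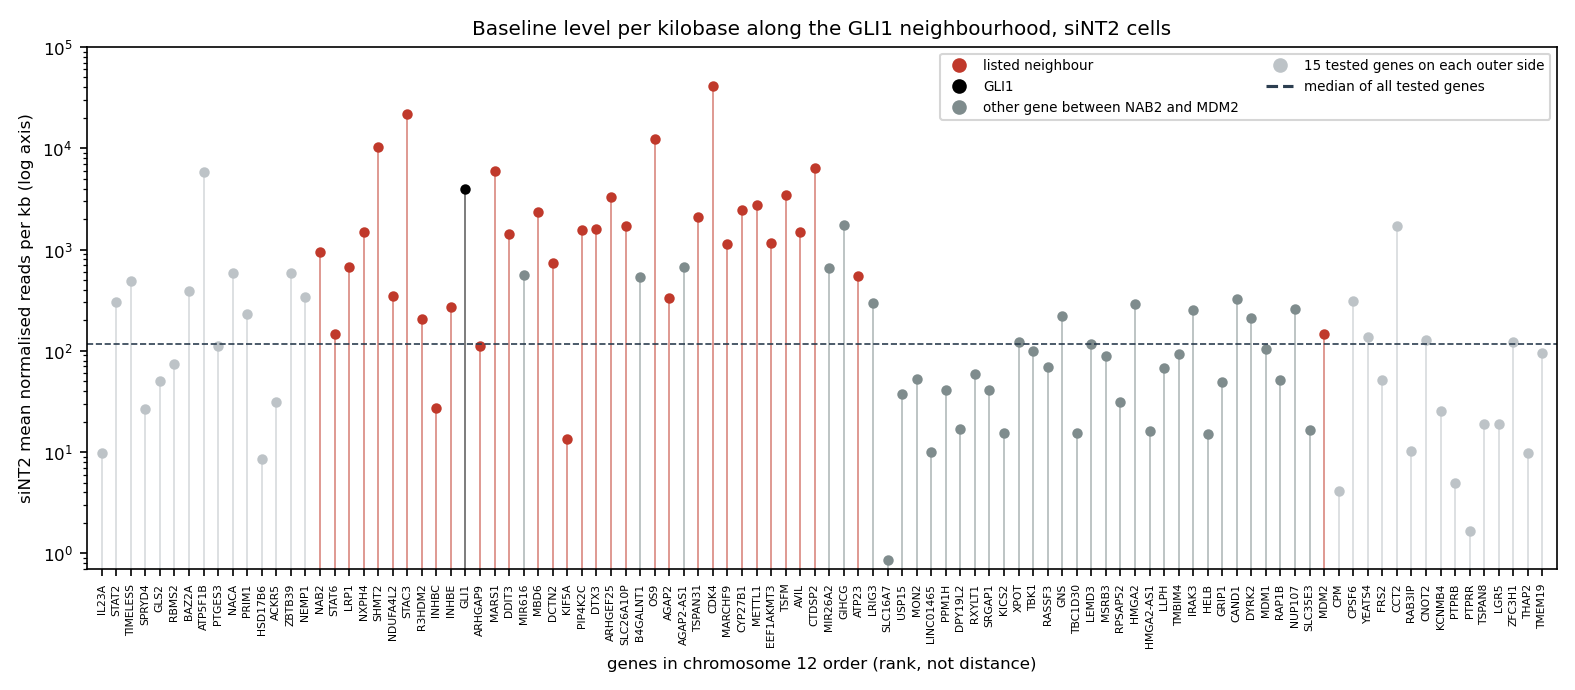
Mean normalised reads per kb in siNT2 cells (log axis) for tested genes in chromosome 12 order, with listed neighbours in red, GLI1 in black, other genes between NAB2 and MDM2 in dark grey and 15 genes on each outer side in light grey. The dashed line is the median of all tested genes, 117 per kb, and most red points from NAB2 to ATP23 lie above it while the genes up to MDM2 scatter around or below it.

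After the GLI1 siRNA, 7 neighbours changed, in both directions, and 26 did not pass the test. INHBE, DDIT3 and STAC3 rose, and PIP4K2C, NAB2, MARCHF9 and EEF1AKMT3 fell. That is 3 of 33 higher, where 7.21% of all tested genes were called higher, and 4 of 33 lower, where 8% were called lower (limma, Benjamini-Hochberg adjusted p under 0.05). The groups did not overlap in 5 neighbours with siGLI1 higher and 8 with siGLI1 lower, against 17.4% and 18.8% of all tested genes. These shares are near the background. The median log2 fold change was -0.15 over the neighbours and -0.01 over all genes, with a range of -1.04 to 1.59. That median turned to 0.006 without siGLI1 replicate 1.

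The counts changed when libraries were left out and when a GC correction was made. Correcting each library for its GC trend gave 9 higher and 6 lower neighbours, and 2431 higher and 2434 lower genes over the whole table. Leaving out both libraries that ran high for GC-rich genes, siGLI1 replicate 3 and siNT2 replicate 2, gave 5 higher and 7 lower, with 2236 higher and 2356 lower over all tested genes. A single neighbour was called higher without siGLI1 replicate 2, without siNT2 replicate 1 or without siNT2 replicate 3. Those fits called 283, 414 and 640 genes higher over the whole table, against 1127 with all libraries. Only 2 were called lower without siGLI1 replicate 1, siGLI1 replicate 2 or siNT2 replicate 1, fits that called 795, 358 and 449 genes lower over the whole table, against 1249 with all libraries. INHBE, NAB2 and PIP4K2C were called in the same direction under all 16 alternatives.

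**Figure D2:**
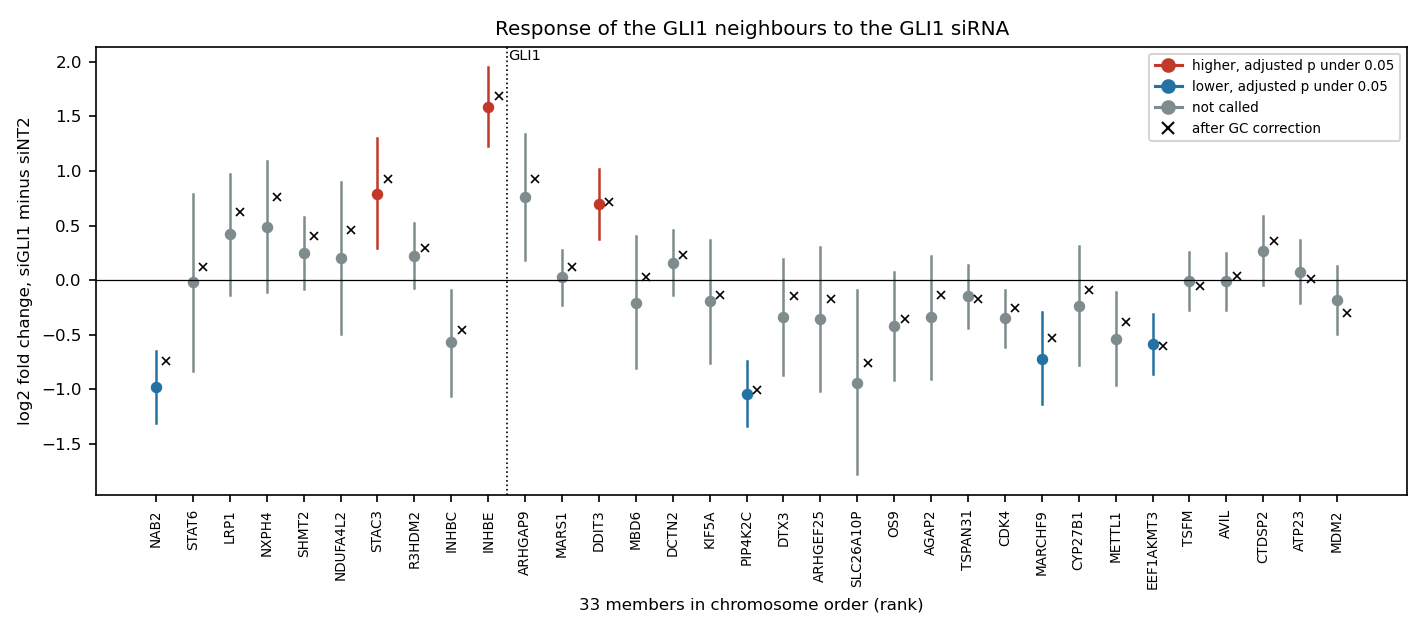
Log2 fold change, siGLI1 minus siNT2, of the 33 neighbours in chromosome order, with 95% intervals, red for called higher, blue for called lower and grey for not called. Crosses give the fold change after the GC correction, and the dotted line marks the place of GLI1. INHBE at 1.59 and PIP4K2C at -1.04 are the extremes.

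Among the secreted ligands and receptors, INHBE had the largest rise of the tested genes between NAB2 and MDM2. INHBE encodes the beta E subunit of activin E, a member of the TGF-beta family made mainly in liver, and it is the listed gene just before GLI1. It had 2245, 1984 and 1739 normalised reads in siGLI1 libraries, against 643, 743 and 588 in siNT2 libraries. All siGLI1 libraries were far above all siNT2 libraries. The mean was 1990 ± 253 in siGLI1 cells and 658 ± 78.9 in siNT2 cells (SD, n = 3 each), a log2 fold change of 1.59 (standard error 0.15, 95% interval 1.23 to 1.95, limma adjusted p = 0.00127).

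The other 3 genes of this role were not called. INHBC, the neighbouring activin subunit gene, had 30.2, 42.9 and 36.5 normalised reads in siGLI1 libraries and 54.9, 51.7 and 56.6 in siNT2 libraries, so the groups did not overlap and the fold change of -0.57 was opposite in sign to that of INHBE (limma adjusted p = 0.105). LRP1, a large endocytic receptor, had a log2 fold change of 0.42 and NXPH4, a secreted ligand of neurexins, one of 0.49, with overlapping groups in both. After the GC correction both were called higher, LRP1 at 0.62 (adjusted p = 0.0147) and NXPH4 at 0.76 (adjusted p = 0.000372).

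The 5 genes placed under transcription went both ways. DDIT3 encodes CHOP, the bZIP factor of the integrated stress response. It had 2174, 2515 and 2647 normalised reads in siGLI1 libraries and 1518, 1641 and 1352 in siNT2 libraries. Each siGLI1 library was above each siNT2 library, and DDIT3 rose by 0.70 in log2 units with a standard error of 0.14 (95% interval 0.38 to 1.02, limma adjusted p = 0.0162). The call was lost without siGLI1 replicate 2, siNT2 replicate 1 or siNT2 replicate 3. GENCODE 29 has 27.2% of the exon bases of DDIT3 shared with MARS1 on the opposite strand. The strand setting of the counting is not given in the sources used here, so reads of such pairs cannot be told apart. For MARS1 itself the log2 fold change was 0.025, with a 95% interval from -0.23 to 0.28.

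NAB2, a corepressor of EGR transcription factors and the first gene of the block, fell. It had 1148, 1290 and 1500 normalised reads in siGLI1 libraries and 2452, 2789 and 2494 in siNT2 libraries. The groups were far apart, and the siGLI1 mean was 50.9% of the siNT2 mean, a log2 fold change of -0.98 (standard error 0.14, 95% interval -1.31 to -0.65, limma adjusted p = 0.00532). STAT6, whose exons share 69 bases with NAB2 on the opposite strand, had a fold change of -0.02 with a wide interval, -0.83 to 0.79. MBD6, a methyl-CpG-binding domain protein, had -0.21, and R3HDM2, which carries an R3H nucleic acid-binding domain, 0.22, neither called. R3HDM2 was called higher after the GC correction (0.29, adjusted p = 0.0495).

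Because DDIT3 rose, 29 genes known as targets of ATF4 or CHOP and lying outside the region are given beside it. This list was drawn up with earlier results of these libraries known. Of the 28 that passed the filter, 7 were higher (TRIB3, ATF3, VLDLR, STC2, GDF15, PPP1R15A and NUPR1) and 3 lower (SLC7A5, MTHFD2 and WARS1), with a median log2 fold change of 0.21. Over all tested genes, 7.21% were higher and 8% lower. NUPR1 passed the filter only through the group where it was high, with a mean of 19.5 in siGLI1 libraries and 4.40 in siNT2 libraries. GDF15, a stress-induced cytokine, had 1083, 879 and 952 normalised reads in siGLI1 libraries and 250, 183 and 199 in siNT2 libraries, a log2 fold change of 2.21 (adjusted p = 0.000514). ATF3, a bZIP factor of the stress response, rose by 1.78 (adjusted p = 0.000548), and STC2, a secreted glycoprotein, rose by 1.02 (adjusted p = 0.00173). MTHFD2, a mitochondrial folate enzyme, fell to a mean of 640 in siGLI1 libraries, against 1781 in siNT2 libraries (log2 fold change -1.47, adjusted p = 0.00148). ATF4 (0.08) and the amino acid synthesis genes ASNS (0.16), PHGDH (0.21) and PSAT1 (0.42) were not called. The call of NUPR1 was lost in 4 of the 6 sets that left out a library, and that of WARS1 in 2 of 6.

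In the group of motors and muscle genes, STAC3 had 48336, 61538 and 79497 normalised reads in siGLI1 libraries and 34319, 44660 and 29555 in siNT2 libraries. The groups did not overlap, but the spread within each was wide, and the high libraries were siGLI1 replicate 3 and siNT2 replicate 2. STAC3 rose by 0.79 in log2 units with a standard error of 0.22 (95% interval 0.29 to 1.30, limma adjusted p = 0.0485). The call was lost without siGLI1 replicate 2, siGLI1 replicate 3, siNT2 replicate 1 or siNT2 replicate 3, and also without the filter and under upper-quartile scaling. After the GC correction the fold change was 0.93 (adjusted p = 0.0013). Of 7 tested muscle markers, DES (0.97), CHRNA1 (0.62) and MYH3 (1.36) were also higher, where 7.21% of all tested genes were. Their part in the rise of STAC3 was not tested. MYOD1 (-0.04), MYOG (0.24), PAX3 (-0.01) and CDH15 (-0.02) were not called. After the GC correction MYOG was called higher (0.41, adjusted p = 0.00733), and MYOD1, PAX3 and CDH15 were still not called. The call of DES was lost without siNT2 replicate 1. Those of CHRNA1 and MYH3 were lost without siGLI1 replicate 2 or siNT2 replicate 1. DCTN2, the dynamitin subunit of dynactin, had a fold change of 0.16 and KIF5A one of -0.19, neither called.

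Of 5 genes of metabolism and mitochondria, PIP4K2C fell. It encodes a phosphatidylinositol-5-phosphate 4-kinase. It had 2166, 2188 and 2213 normalised reads in siGLI1 libraries and 4649, 3951 and 4962 in siNT2 libraries. The siGLI1 libraries were nearly identical to each other, with a coefficient of variation of 1.07%, and all below the siNT2 libraries. The siGLI1 mean was 48.4% of the siNT2 mean, a log2 fold change of -1.04 (standard error 0.13, 95% interval -1.34 to -0.74, limma adjusted p = 0.00279). PIP4K2C carries the word GCACCTC printed above.

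SHMT2 had 36569, 41722 and 47826 normalised reads in siGLI1 libraries and 34526, 38952 and 32387 in siNT2 libraries, and the groups overlapped (log2 fold change 0.25, standard error 0.14, adjusted p = 0.271). After the GC correction it was called higher at 0.40 (adjusted p = 0.0139). NDUFA4L2, a mitochondrial protein induced by hypoxia, had a fold change of 0.20 and was called higher after the correction (0.46, adjusted p = 0.0357). CYP27B1, the enzyme that makes active vitamin D, had -0.24, and ATP23, a mitochondrial protease, had 0.08, neither called.

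Among 4 genes of translation and methylation, EEF1AKMT3 fell. EEF1AKMT3 is a lysine methyltransferase of elongation factor eEF1A. It had 1962, 2242 and 2275 normalised reads in siGLI1 libraries and 3200, 3308 and 3202 in siNT2 libraries. The groups were clearly separate and the siNT2 libraries differed from each other by little. The log2 fold change was -0.59 (standard error 0.12, 95% interval -0.86 to -0.31, limma adjusted p = 0.0176), and the call was lost without siGLI1 replicate 1, siGLI1 replicate 2, siNT2 replicate 1 or siNT2 replicate 3. Its neighbour METTL1, which makes the m7G mark on transfer RNAs, had 3071, 4014 and 4676 normalised reads in siGLI1 libraries and 5392, 6500 and 5011 in siNT2 libraries. The groups did not overlap, but the fold change of -0.54 was not called (adjusted p = 0.091). METTL1 was called lower after the GC correction (-0.38, adjusted p = 0.0146). METTL1 and EEF1AKMT3 share 506 exon bases on opposite strands, and each carries the word GCACCTC. TSFM, the mitochondrial elongation factor Ts, lay at -0.004 with an interval of -0.27 to 0.26.

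Of the 3 neighbours with the word GCACCTC in the 3' UTR, 2 were called lower, and of the 30 without it, 2. Over all 13180 tested genes with an annotated 3' UTR, 8.09% were called lower. The share was 16.6% of the 1467 genes with the word (11.1% of all) and 7.02% of the genes without it. The word was picked because genes called lower in these same libraries carried it more often. These counts and shares are therefore not independent of that choice. Its part in the fall of PIP4K2C and EEF1AKMT3 was not tested.

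Neither CDK4 nor MDM2 passed the test. CDK4 had 64974, 62959 and 73351 normalised reads in siGLI1 libraries and 86317, 83396 and 86675 in siNT2 libraries. All siGLI1 libraries were below all siNT2 libraries, and the siGLI1 mean was 78.5% of the siNT2 mean, but the log2 fold change of -0.35 was not called (standard error 0.11, 95% interval -0.61 to -0.09, limma adjusted p = 0.0737). CDK4 shares 43.2% of its exon bases with TSPAN31 on the opposite strand. MDM2 had 1785, 1739 and 1438 normalised reads in siGLI1 libraries and 1832, 1926 and 1849 in siNT2 libraries, again without overlap, with a fold change of -0.18 (standard error 0.13, 95% interval -0.49 to 0.13, adjusted p = 0.386). CTDSP2 had 40713, 39135 and 32133 normalised reads in siGLI1 libraries and 31223, 27830 and 33381 in siNT2 libraries, and the groups overlapped (log2 fold change 0.27, standard error 0.14, adjusted p = 0.219).

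Of 18 genes that work with CDK4 or MDM2 and lie outside the region, 0 were called higher and 4 lower by limma. Over all tested genes, 7.21% were higher and 8% lower. At an unadjusted p under 0.05, 2 of the 18 were higher and 5 lower, where 2392 and 2551 of all 15622 tested genes were. edgeR called 0 higher and 3 lower, with 1182 and 1200 over all tested genes. DESeq2 called 2 higher and 4 lower, with 1645 and 1634 over all tested genes. The 4 lower genes were CCND1 (-0.55, adjusted p = 0.0283), the D cyclin partner of CDK4, E2F1 (-0.75, adjusted p = 0.0435) and E2F2 (-0.47, adjusted p = 0.0444), transcription factors held by RB1, and CDKN2D (-0.58, adjusted p = 0.0486), an inhibitor of CDK4. CCND1 had 1298, 1219 and 1437 normalised reads in siGLI1 libraries and 1804, 2052 and 1920 in siNT2 libraries. All 4 calls were lost when any 1 library other than siGLI1 replicate 3 was left out. The GC correction also ended the calls of E2F2 (-0.30, adjusted p = 0.138) and CDKN2D (-0.36, adjusted p = 0.153). Without the filter both were lost too, upper-quartile scaling ended those of E2F1 and CDKN2D, and edgeR and a pseudocount of 8 ended that of CDKN2D. MDM4 (0.46), a relative and partner of MDM2, and CDKN1A (-0.40), an inhibitor of cyclin-dependent kinases, were not called by limma. MDM4 was called higher by DESeq2 (adjusted p = 0.0418), after the GC correction (0.35, adjusted p = 0.0123) and without siGLI1 replicate 3. CDKN1A was called lower only when siGLI1 replicate 3 and siNT2 replicate 2 were both left out. The list's median was -0.01.

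**Figure D3:**
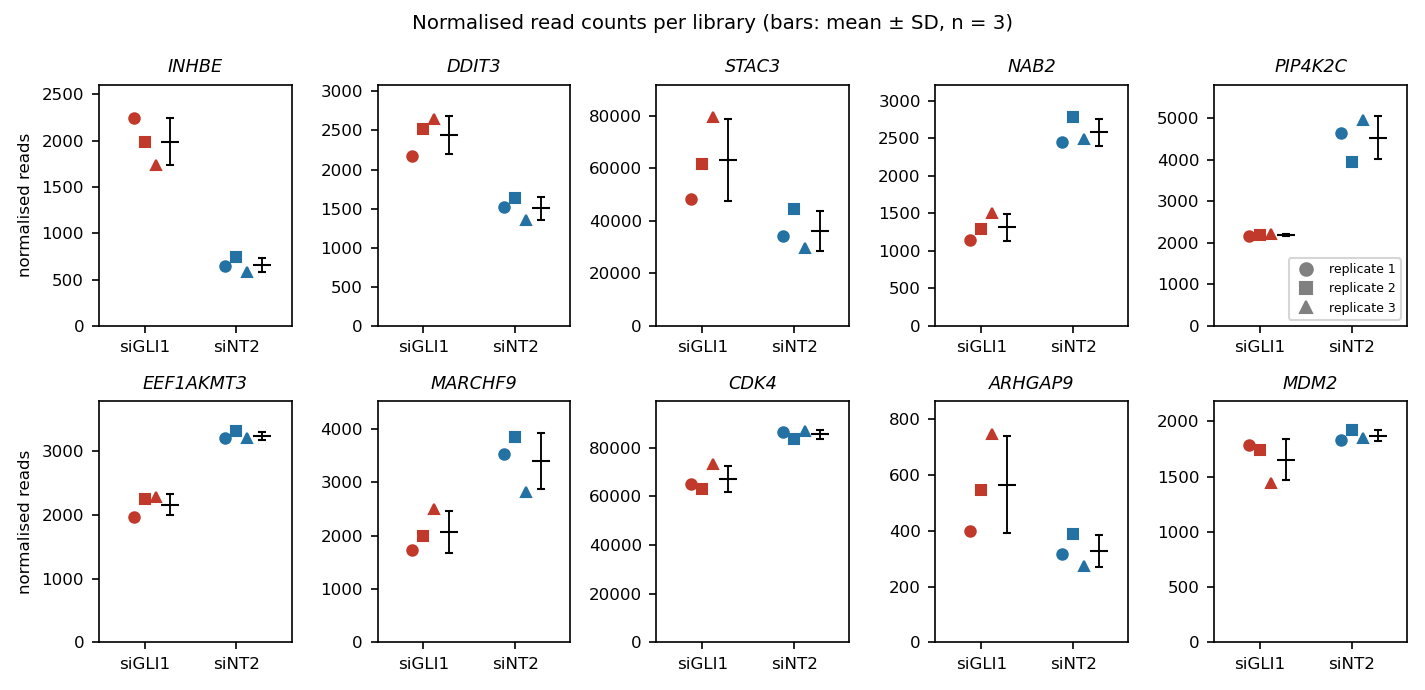
Normalised read counts of 10 neighbours in each library, siGLI1 left in red and siNT2 right in blue, with a symbol for each replicate number and the mean ± SD (n = 3) as bars. The panels are the called neighbours with CDK4, ARHGAP9 and MDM2. The groups do not overlap in any panel, and they nearly touch in ARHGAP9 (lowest siGLI1 library 401, highest siNT2 library 388) and MDM2 (highest siGLI1 library 1785, lowest siNT2 library 1832). Of all 33 neighbours, 5 had no overlap with siGLI1 higher and 8 with siGLI1 lower, against 17.4% and 18.8% of all tested genes.

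Among ubiquitin, membrane and secretory genes, MARCHF9, a membrane-bound RING ubiquitin ligase, fell. It had 1734, 1987 and 2505 normalised reads in siGLI1 libraries and 3536, 3848 and 2821 in siNT2 libraries. The groups did not overlap, with siGLI1 replicate 3 and siNT2 replicate 3 closest. The log2 fold change was -0.72 (standard error 0.18, 95% interval -1.14 to -0.29, limma adjusted p = 0.0375), and the call was lost without siGLI1 replicate 1, siGLI1 replicate 2, siNT2 replicate 1 or siNT2 replicate 2. OS9 had 28473, 33747 and 46446 normalised reads in siGLI1 libraries and 44270, 58836 and 41223 in siNT2 libraries, and only siGLI1 replicate 3 reached into the siNT2 range (log2 fold change -0.42, standard error 0.21, adjusted p = 0.218).

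TSPAN31, a tetraspanin, had a fold change of -0.15 and DTX3, a Deltex family ubiquitin ligase, one of -0.34, neither called. SLC26A10P, a pseudogene of the SLC26 anion transporter family, had 1166, 2318 and 3308 normalised reads in siGLI1 libraries and 3270, 5197 and 3689 in siNT2 libraries. Its siGLI1 libraries varied most of all neighbours, with a coefficient of variation of 47.3%, and siGLI1 replicate 3 overlapped the siNT2 range (log2 fold change -0.94, adjusted p = 0.125). It was called lower after the GC correction (-0.76, adjusted p = 0.0393) and without siGLI1 replicate 3. SLC26A10P shares 50% of its exon bases with B4GALNT1 on the opposite strand, and B4GALNT1 was called lower.

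Of the 4 regulators of small GTPases and actin, 0 were called by limma or edgeR, 1 by DESeq2 and 1 at an unadjusted p under 0.05. Over all 15622 tested genes, limma called 1127 higher and 1249 lower, edgeR 1182 and 1200, and DESeq2 1645 and 1634. At an unadjusted p under 0.05, 2392 of all tested genes were higher and 2551 lower. ARHGAP9, a GTPase-activating protein on the far side of GLI1 from INHBE, had 401, 547 and 749 normalised reads in siGLI1 libraries and 316, 388 and 274 in siNT2 libraries. The groups did not overlap, by a margin of 401 against 388. Its log2 fold change of 0.76 (standard error 0.25, 95% interval 0.18 to 1.34) had an adjusted p of 0.0794 by limma and 0.0208 by DESeq2. After the GC correction it was 0.93 (adjusted p = 0.0012). ARHGAP9 overlaps GLI1 by 8 exon bases and MARS1 by 519, both on the opposite strand. ARHGEF25, a guanine nucleotide exchange factor, had a fold change of -0.36, AGAP2, an Arf GTPase-activating protein, one of -0.34, and AVIL, an actin-binding protein of the villin family, one of -0.01.

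Read in chromosome order, fold changes of one sign lay next to each other. From LRP1 to DDIT3, 10 of 11 neighbours were above 0 (median 0.42), with INHBC the exception. From PIP4K2C to AVIL, 14 of 14 were below 0 (median -0.36), and with B4GALNT1 and AGAP2-AS1 it was 16 of 16. Over all tested genes, 50.8% were below 0. These stretches were marked out after their values were seen, so no test is given. Across the alternatives, 12 to 14 of the 14 stayed below 0 and 9 or 10 of the 11 above 0. After the GC correction the medians were 0.62 and -0.22.

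The 37 other tested genes between NAB2 and MDM2 had a median log2 fold change of 0.17, with 3 called higher and 5 lower, where 7.21% and 8% of all tested genes were. Leaving out 1 library gave 1 higher without siGLI1 replicate 2 or siNT2 replicate 1, 5 higher without siGLI1 replicate 3, and 2 lower without siGLI1 replicate 2, siNT2 replicate 1 or siNT2 replicate 3. Without siGLI1 replicate 1, 3 were lower. Over the whole table, fits without 1 library called between 283 and 1562 genes higher and between 358 and 1705 lower. The 37 genes included the largest fall of the interval apart from GLI1. B4GALNT1, the ganglioside synthase that makes GM2 and GD2, had 799, 986 and 1215 normalised reads in siGLI1 libraries and 2600, 3236 and 3049 in siNT2 libraries, a log2 fold change of -1.58 (adjusted p = 0.00217). AGAP2-AS1, a long noncoding RNA antisense to AGAP2, had 327, 340 and 451 in siGLI1 libraries and 1001, 1238 and 803 in siNT2 libraries (-1.43, adjusted p = 0.00492). It shares 866 exon bases with AGAP2, which had a fold change of -0.34. Both genes lie within the block, beside SLC26A10P, OS9 and AGAP2.

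Between ATP23 and MDM2, PPM1H, a protein phosphatase, rose by 1.30 (adjusted p = 0.00232), XPOT, the exportin of transfer RNAs, rose by 0.84 (adjusted p = 0.0395), and DPY19L2 fell by 1.07 (adjusted p = 0.0236). The other called genes here, named after their values were seen, were SRGAP1 (0.68), higher, and HMGA2 (-0.71, adjusted p = 0.0275), an architectural chromatin protein and oncogene, and TBC1D30 (-0.81), both lower. The calls of XPOT and TBC1D30 were lost when any 1 library other than siGLI1 replicate 3 was left out. That of DPY19L2 was lost without siGLI1 replicate 1, siGLI1 replicate 2, siNT2 replicate 1 or siNT2 replicate 3. That of HMGA2 was lost without siGLI1 replicate 2, siNT2 replicate 1 or siNT2 replicate 3, and that of SRGAP1 without siGLI1 replicate 2 or siNT2 replicate 1. After MDM2, PTPRR (1.95, adjusted p = 0.00588), LGR5 (1.33, adjusted p = 0.0167) and KCNMB4 (0.87, adjusted p = 0.0139) were among 4 genes of 15 called higher by limma. Over all tested genes, limma called 7.21% higher. These 15 held 0 called lower by limma, edgeR or DESeq2, and 1 lower at an unadjusted p under 0.05. The call of LGR5 was lost without siGLI1 replicate 2 or siNT2 replicate 1, and that of KCNMB4 without either of these or siNT2 replicate 3. PTPRR passed the filter only through the group where it was high, with 29.2, 24.5 and 21.7 normalised reads in siGLI1 libraries and 7.69, 5.07 and 4.78 in siNT2 libraries, and its fold change was 1.26 with a pseudocount of 8. PTPRR is a receptor-type tyrosine phosphatase, LGR5 an R-spondin receptor and KCNMB4 a potassium channel subunit. Of the 15 before NAB2, 0 were called by limma, and 1 was called higher by edgeR and by DESeq2. At an unadjusted p under 0.05, 1 of them was higher and 2 lower. Over all 15622 tested genes, edgeR called 1182 higher and 1200 lower, and DESeq2 1645 higher and 1634 lower. The counts at an unadjusted p under 0.05 were 2392 higher and 2551 lower over all tested genes.

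**Figure D4:**
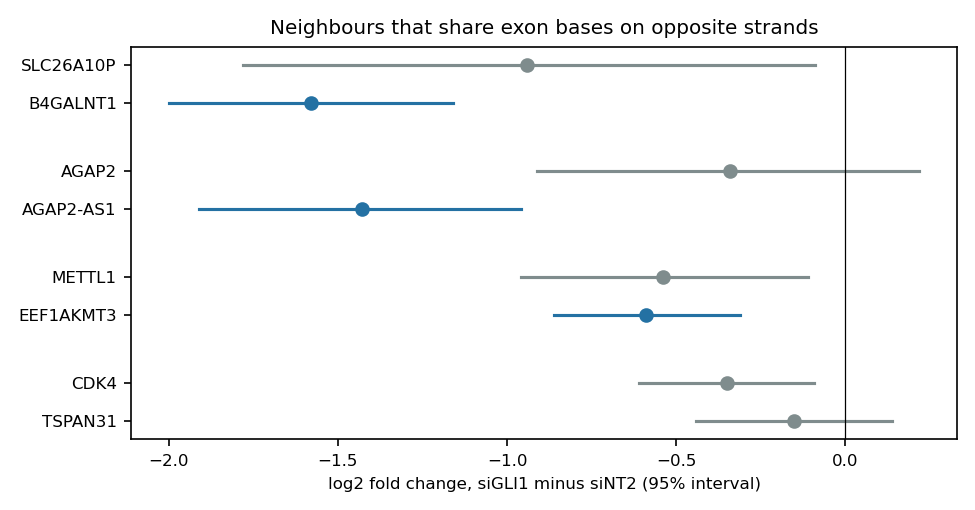
Log2 fold change, siGLI1 minus siNT2, with 95% intervals, of selected neighbours and genes with which they share exon bases on opposite strands. Blue marks called lower and grey not called. Other such pairs are not drawn, among them DDIT3 (0.70, called higher) with MARS1, and NAB2 (-0.98, called lower) with STAT6. B4GALNT1 (-1.58), AGAP2-AS1 (-1.43) and EEF1AKMT3 (-0.59) are called, their partners SLC26A10P, AGAP2 and METTL1 are not, and CDK4 and TSPAN31 are both grey.

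As a share of all normalised reads, the listed neighbours from NAB2 to ATP23 with GLI1 held 2.09%, 2.38% and 2.66% in the siGLI1 libraries and 2.34%, 2.55% and 2.29% in the siNT2 libraries. The groups overlapped. CDK4 alone held 0.436%, 0.43% and 0.48% in siGLI1 libraries and 0.575%, 0.531% and 0.574% in siNT2 libraries, so all siGLI1 shares were below all siNT2 shares.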

How the data were processed

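RNA sequencing compared 3 siGLI1 with 3 siNT2 libraries of RMS13 cells. Per the submitters' processing notes, the build was hg19 and the tools included DESeq2 2.11.40.6, Subread 1.6.4 with featureCounts, Bowtie2 2.3.3.1 and Trim Galore 0.4.5. Which annotation and strand setting served the counting is not given in the sources used here. The authors deposited 1 table of signal values, which are read counts per gene divided by a size factor per library. In every library 100.0% of the values were whole reads within a tolerance of 0.01, so whole reads were recovered for edgeR and DESeq2. A count of 0 allows up to 3 reads, or 2.39 to 3.29 deposited units, covering counting error only.

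limma 3.58.1 in R 4.3.3 was fitted to log2(value + 1) with the group as the only term, for genes with a mean of 10 or more, with Benjamini-Hochberg adjustment over 15622 genes and a threshold of 0.05. Alternatives were edgeR 4.0.16, DESeq2 1.42.0, pseudocounts of 8 and 0.5, no filter, upper-quartile scaling, a replicate block, a lowess GC correction (span 0.3), and leaving libraries out. Python 3.11.15 with pandas 2.3.3, scipy 1.17.1 and matplotlib 3.10.9 was used for summaries and figures. Only the main limma fit, and not the alternatives, was run on simulated counts. The simulated counts had no GC trend, unlike these libraries.

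Entrez IDs took names and gene order from RefSeq on GRCh38.p14 (92.2% of IDs matched). No coordinates were carried over to hg19. NDUFA4L2 is COXFA4L2 there. Lengths, GC content, 3' UTRs and exon overlaps came from GENCODE 29, which gave lengths for 14438 tested genes.

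Values are given in full for called neighbours, CDK4, MDM2, INHBE, ARHGAP9 and the 5 neighbours highest per kb. Of other genes in and beside the interval, up to 8 called genes with the largest changes are named, and up to 4 per list by smallest p. Genes named beyond that rule were chosen after their values were seen. The neighbours and lists were chosen with earlier results of these data known. Some genes of the lists are not reported here.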

Additional observations from a re-analysis of the deposited data

How the results depend on the processing

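Across 16 alternatives, none of the 30 named genes changed sign. Of 480 values, 399 stayed on the same side of the threshold, 73 fell short of it and 8 newly passed it. The 33 neighbours had 3 called higher and 4 lower. The GC correction gave 9 higher. With the replicate block added to it, 8 were higher. The replicate block alone gave 1 higher and 2 lower. Leaving out 1 library each gave 1 to 4 higher and 2 to 6 lower. Leaving out siGLI1 replicate 3 and siNT2 replicate 2, chosen after seeing the data, gave 5 higher and 7 lower. The other genes between NAB2 and MDM2 had 3 higher and 5 lower, against 6 and 9 with the GC correction, 1 and 2 with the replicate block, 7 and 8 without both libraries, and 1 to 5 and 2 to 5 without 1 library each. The cause was not tested.

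Same-numbered libraries of the groups deviated with correlations of 0.494, -0.109 and -0.614, and are not taken as pairs. The sample descriptions share a code by replicate number, and the labels do not say what it marks. The fit with the replicate block called 462 genes higher and 508 lower, against 1127 and 1249 without it. Of the 30 named genes, it ended the calls of 12. Among the neighbours these were DDIT3 (adjusted p = 0.0758), STAC3 (0.0808), EEF1AKMT3 (0.0903) and MARCHF9 (0.112), and not INHBE, NAB2 or PIP4K2C. The others were CCND1, E2F1, E2F2, CDKN2D, XPOT, DPY19L2, KCNMB4 and LGR5. Outside that set, the block also ended the calls of DES, CHRNA1, WARS1, HMGA2, SRGAP1 and TBC1D30.

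The neighbours' median log2 fold change ran from -0.23 to 0.006 over all alternatives, above 0 only without siGLI1 replicate 1. Their median baseline percentile of 96.7 was 93.5 with the median transcript length, 96.1 with no division by length, 97.6 with no filter, and 96.5 to 96.6 without 1 library each. With 3 libraries a group, intervals were as wide as -1.78 to -0.09 for SLC26A10P, so the size of such changes is uncertain.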
